A study of Mus musculus with 2 samples.

Results

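Igf2, H19, Dlk1, Meg3, Igf2r, Cdkn1c, Peg3, Mest, Grb10 and Plagl1 are 10 imprinted genes of fetal growth, and their transcripts were followed through the cell classes of the embryonic mouse eye. They were chosen by symbol, 10 of the 32285 genes of the feature list, and each was detected. The libraries were single-cell RNA-seq (10x 3' tags, counted as unique molecular identifiers, UMIs) of dissociated mouse eye cups at E17.5 (embryonic day), 1 from Myrf humWT/humWT and 1 from Myrf humdG/humdG mice, each pooled from 3 eye cups per the labels. Myrf encodes a membrane-bound transcription factor of the retinal pigment epithelium (RPE). Both lines carry a humanised last exon of Myrf on a C57BL/6J background, and in humdG that exon also bears a C-terminal frameshift found in people with nanophthalmos (very small eyes). Each allele is carried in the germline and so by every cell, humWT homozygotes are viable, and humdG homozygotes are lost around birth. With 1 library per genotype there is no replicate, so no test between genotypes was possible. All intervals below are 95% intervals for counting error alone, and litter, dissection and library cannot be told apart from genotype.

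An imprinted gene is read mainly from the copy inherited from 1 parent. In the mouse, Igf2, Dlk1, Peg3, Mest and Plagl1 are read from the paternal copy, and H19, Meg3, Igf2r and Cdkn1c from the maternal copy, while Grb10 uses the maternal copy in most tissues and the paternal copy in neurons. Many of these genes are high in fetal mesoderm and decline after birth, and as a group they set fetal growth: Igf2 is a growth factor, Igf2r removes it, Cdkn1c halts the cell cycle and Grb10 dampens insulin and IGF receptor signalling. Parental origin was not measured here. H19 (chr7:142575529-142578143, minus strand; a long noncoding RNA) lies 72622 bases from Igf2 (chr7:142650766-142666816, minus strand), and Dlk1 (chr12:109452823-109463336, plus strand) lies 77664 bases from Meg3 (chr12:109541001-109571726, plus strand; a long noncoding RNA), in mm10 (GRCm38) coordinates of GENCODE M21. Cdkn1c (chr7:143458339-143461050, minus strand) lies on the same chromosome as Igf2 and H19. Peg3 (chr7:6703892-6730431, minus strand), Mest (chr6:30723547-30748465, plus strand), Plagl1 (chr10:13060504-13131694, plus strand), Grb10 (chr11:11930508-12038683, minus strand) and Igf2r (chr17:12682406-12769664, minus strand) stand elsewhere. Igf2r is crossed by the antisense RNA Airn, Igf2 by Igf2os and the end of Mest by Copg2, each on the opposite strand.

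Of the 10 genes, 4 host microRNAs, and the mature sequences are shown because they are what these long transcripts can release, although 3' tags do not count mature microRNAs. They are given 5′ to 3′ from RefSeq (GRCm38.p6), with the seed, bases 2 to 8, in capitals. Those of H19 and Meg3 lie in exons of the host, and those of Igf2 and Mest in introns. No seed is shared between them.
mmu-miR-675-5p (H19, chr7:142577112-142577133, minus strand): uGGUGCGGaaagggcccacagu
mmu-miR-675-3p (H19, chr7:142577078-142577099, minus strand): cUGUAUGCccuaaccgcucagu
mmu-miR-483-5p (Igf2, chr7:142654968-142654989, minus strand): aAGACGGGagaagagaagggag
mmu-miR-483-3p (Igf2, chr7:142654932-142654952, minus strand): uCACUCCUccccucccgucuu
mmu-miR-1906 (Meg3, chr12:109544588-109544609, plus strand): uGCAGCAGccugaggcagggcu
mmu-miR-770-5p (Meg3, chr12:109563710-109563731, plus strand): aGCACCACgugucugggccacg
mmu-miR-770-3p (Meg3, chr12:109563744-109563765, plus strand): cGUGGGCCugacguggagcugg
mmu-miR-335-5p (Mest, chr6:30741314-30741336, plus strand): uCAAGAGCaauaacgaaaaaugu
mmu-miR-335-3p (Mest, chr6:30741354-30741375, plus strand): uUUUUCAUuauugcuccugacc

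Upstream sequence is shown for 3 genes whose results it helps to place: Dlk1 and its neighbour Meg3, whose levels part company between cell classes, and Peg3, whose window holds a motif tied to Plagl1. Each run is the 250 bases before the RefSeq start, 5′ to 3′ on the strand of the gene (GRCm38.p6). Capitals mark TATAAA, which starts 25 bases before the Meg3 start, and GGGGCCCC, which starts 201 bases before the Peg3 start and reads the same on both strands; GGGGCCCC is the core that Plagl1 protein binds in vitro. Both motifs were searched on both strands in windows of 300 bases (250 before to 50 after a start), they do not overlap each other, and among 15 windows of 8 of the 10 genes each was found in 1. Over all 32851 windows, GGGGCCCC was found in 1.08% and TATAAA in 13.6%. H19 and Cdkn1c have no window in the table. The CpG count of a window was highest in this set for Grb10, with 45 CpGs, and Igf2r, with 34, against a median of 7 over all windows.
Dlk1 (chr12:109452573-109452822): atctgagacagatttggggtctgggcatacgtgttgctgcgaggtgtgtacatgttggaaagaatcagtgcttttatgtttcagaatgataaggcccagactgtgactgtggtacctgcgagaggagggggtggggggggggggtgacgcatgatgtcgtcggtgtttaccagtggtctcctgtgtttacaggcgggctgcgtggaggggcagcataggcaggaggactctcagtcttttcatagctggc
Meg3 (chr12:109540746-109540995): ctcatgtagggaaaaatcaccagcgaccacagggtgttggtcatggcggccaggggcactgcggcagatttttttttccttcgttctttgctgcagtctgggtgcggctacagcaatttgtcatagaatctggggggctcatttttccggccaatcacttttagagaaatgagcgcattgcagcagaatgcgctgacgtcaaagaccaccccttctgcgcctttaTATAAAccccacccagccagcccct
Peg3 (chr7:6730420-6730669): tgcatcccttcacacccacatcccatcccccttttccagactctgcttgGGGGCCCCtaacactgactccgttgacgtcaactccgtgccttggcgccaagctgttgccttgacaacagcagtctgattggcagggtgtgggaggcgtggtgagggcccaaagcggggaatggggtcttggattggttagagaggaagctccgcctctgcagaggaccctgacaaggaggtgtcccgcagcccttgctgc

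After filtering, 16245 humWT and 18282 humdG cells with a median of 3781 and 2613.5 UMIs were clustered without the 10 genes or other imprinted genes among the clustering genes, and 20 of 25 clusters were given 14 class names from marker genes. The remaining 5, holding 31.1% of humWT and 48.6% of humdG cells, stayed unnamed. Eye cups as labelled should hold retina, RPE and the coats of the eye, and each of these was found, as was surface epithelium-like tissue with Krt12, a gene of corneal epithelium. The mesenchyme-like class made up 16.1% of humWT and 8.37% of humdG cells, the muscle-like class 11.8% and 4.31%, and the cartilage-like class 6.94% and 0.738%. Dissection can set such shares. Myrf itself was at 281 CPM (95% interval 266 to 297) in humWT and 196 CPM (179 to 214) in humdG in RPE-like cells. Levels are given as CPM, the summed UMIs of a gene in a class per 1000000 UMIs of that class. Where 2 levels are given together, humWT is first and humdG second.

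Red blood cell-like cells served as the measure of free RNA, the RNA of broken cells that enters every droplet. The collagen gene Col1a1, made by mesenchyme, stood there at 1027 and 380.4 CPM, Igf2 at 344 and 101 CPM, and H19 at 526 and 185 CPM. All 10 genes had a lower level there in humdG, although for Meg3, Igf2r, Cdkn1c, Mest, Grb10 and Plagl1 that direction turned in 1 or 2 of the 13 alternative settings. A level at or below that of red blood cell-like cells is read here as background. This mark is rough, since the expected free RNA share differed between classes, from 7.36% to 51.4% of UMIs. In retinal progenitor-like cells it was 25.6% in humWT and 16.7% in humdG. A level under the mark can thus still hold transcripts of the cells themselves, and a level over it can hold much free RNA. Median depth of these cells was 3985 and 4129 UMIs, and 102 barcode sequences occurred in both libraries.

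The mesenchyme-like class held the most of these transcripts. It carried 64.4% of all humWT Igf2 UMIs and 63.6% of those in humdG, and 78.5% and 81.9% of Dlk1 UMIs. In humWT the class had the highest level of 8 of the 10 genes. The exceptions were Cdkn1c, highest in muscle-like cells, and Mest, highest in blood vessel-like cells. In humdG, Grb10 was also an exception, with cartilage-like cells first at 594 CPM and mesenchyme-like cells next at 564 CPM, with overlapping intervals. All 10 genes exceeded the red blood cell-like level by at least 2 times in both libraries in mesenchyme-like cells. Muscle-like and cartilage-like cells had 9 of 10 at that level, blood vessel-like cells 6, RPE-like cells 4 (Meg3, Peg3, Mest and Grb10), retinal progenitor-like cells 2 (Grb10 and Plagl1) and amacrine and horizontal-like cells 2 (Meg3 and Cdkn1c). In the neurogenic-like, white blood cell-like and photoreceptor precursor-like classes the counts were 0, 0 and 1, the 1 being Meg3 in photoreceptor precursor-like cells. Of the 130 pairs of gene and class outside red blood cells, 53 were at 2 or more times that level in both libraries. These counts do not allow for the free RNA share of a class, expected in cartilage-like cells at 51.4% in humWT and 17.4% in humdG. In humWT cartilage-like cells Dlk1 was at 157 and Mest at 208 CPM. The 1% of humWT barcodes with the fewest UMIs, taken as free RNA, held them at 250 and 357 CPM.

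**Figure D1:**
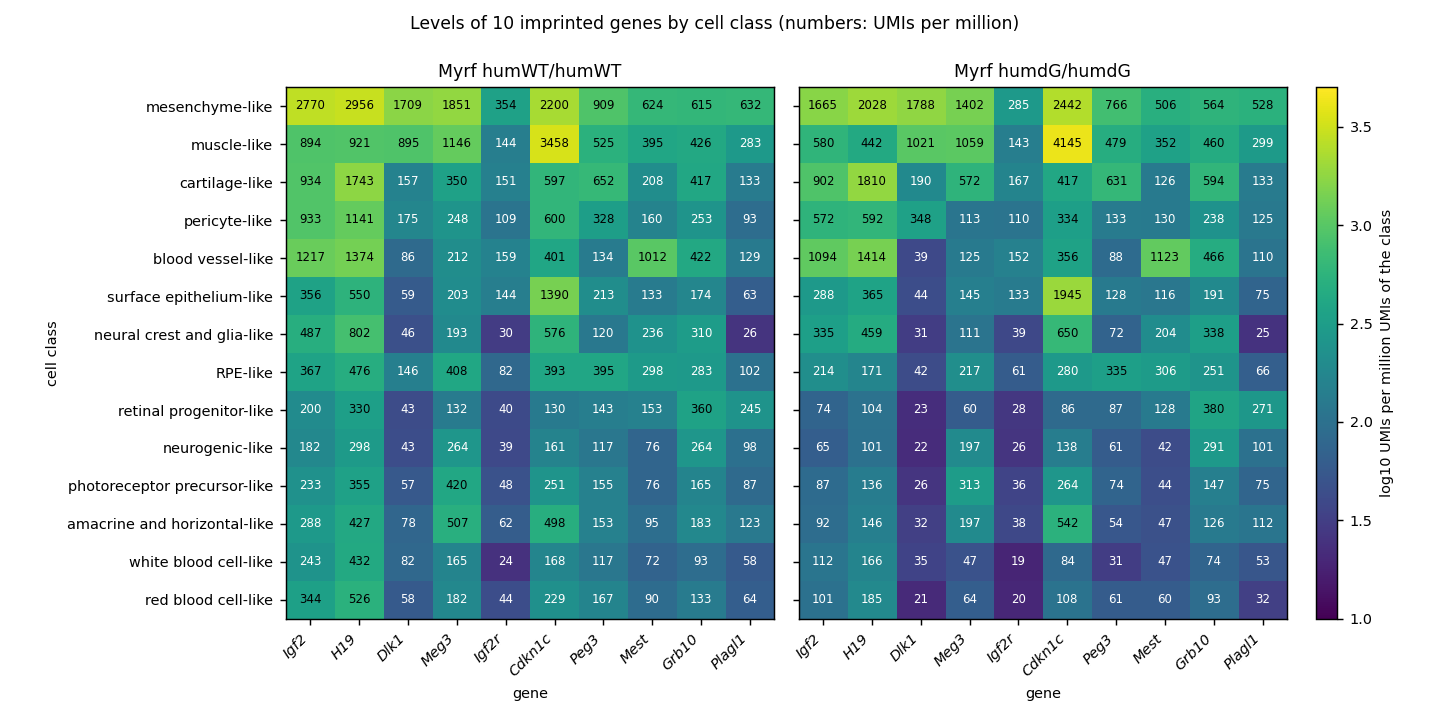
Level of each gene in CPM, by cell class (rows) and gene (columns), with the Myrf humWT/humWT library on the left and the Myrf humdG/humdG library on the right; colour is the log10 level. Mesenchyme-like cells are brightest for most genes, and muscle-like cells for Cdkn1c, at 3458 and 4145 CPM.

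Igf2, the fetal growth factor, was at 2770.2 CPM (95% interval 2753 to 2787) in humWT and 1665 CPM (1648 to 1683) in humdG in mesenchyme-like cells. Blood vessel-like cells followed at 1217 and 1094 CPM, cartilage-like cells had 934 and 902 CPM, pericyte-like cells 933 and 572 CPM and muscle-like cells 894 and 579.5 CPM. Cartilage-like and pericyte-like cells overlapped in humWT, as did pericyte-like and muscle-like cells in both libraries. The retinal classes were lower: retinal progenitor-like cells had 200.3 and 74.2 CPM, photoreceptor precursor-like cells 233 and 87.2 CPM and amacrine and horizontal-like cells 288 and 92.3 CPM. These 3 values were at or below the red blood cell-like level in each library. RPE-like cells stood close to it in humWT, at 367 against 344 CPM, and at about the 2-fold mark in humdG, at 214 against 101 CPM. An Igf2 UMI was seen in 99.1% in humWT and 95.4% in humdG of mesenchyme-like cells and in 75.2% in humWT and 33.9% in humdG of red blood cell-like cells. With each cell thinned to 1000 UMIs these shares became 81.2% and 69.4% against 33.7% and 11.6%.

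Igf2r, the receptor that takes IGF2 to the lysosome, had an order of classes like that of its ligand, at a lower level. It was at 354 CPM (95% interval 348 to 359.9) in humWT and 285 CPM (278 to 293) in humdG in mesenchyme-like cells, at 159 and 152 CPM in blood vessel-like cells and at 144 and 143 CPM in muscle-like cells. Surface epithelium-like cells had 144 and 133 CPM although their Igf2 was near the red blood cell-like level in humWT. In both libraries, 10 of 13 neighbours in the order of Igf2r levels overlapped, while mesenchyme-like cells stood apart from the next class. Airn, the antisense RNA from within Igf2r, was at 683 and 515 CPM in mesenchyme-like cells, 602 and 431 CPM in blood vessel-like cells and 429 and 335 CPM in surface epithelium-like cells.

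H19 was at 2956 CPM (95% interval 2938 to 2973) in humWT and 2028 CPM (2009 to 2047) in humdG in mesenchyme-like cells and at 1743 CPM (95% interval 1699 to 1788) in humWT and 1809.5 CPM (1746 to 1875) in humdG in cartilage-like cells. The ratio of Igf2 to H19 UMIs within a class does not depend on depth, and free RNA alone would give every class the same ratio within a library. In red blood cell-like cells it was 0.655 (0.598 to 0.716) in humWT and 0.545 (0.430 to 0.687) in humdG. Neurogenic-like, photoreceptor precursor-like and amacrine and horizontal-like cells had intervals that overlapped these in both libraries. Mesenchyme-like cells had 0.937 (0.929 to 0.945) and 0.821 (0.810 to 0.833), and cartilage-like cells, with the most H19 per Igf2, 0.536 (0.513 to 0.559) and 0.499 (0.468 to 0.530). Blood vessel-like cells had 0.886 (0.862 to 0.910) and 0.774 (0.742 to 0.808). RPE-like cells had 0.772 (0.723 to 0.825) in humWT and 1.26 (1.10 to 1.43) in humdG, above the red blood cell-like ratio in both libraries. In cluster 18, the muscle-like cluster led by Myog and Pax7, Igf2 exceeded H19 in both libraries, at 1.61 (1.53 to 1.68) and 1.74 (1.61 to 1.90).

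Dlk1, a membrane protein with EGF repeats that keeps preadipocytes and muscle precursors immature, was concentrated in mesenchyme-like and muscle-like cells. It was at 1709 CPM (95% interval 1695 to 1722) in humWT and 1788 CPM (1770.3 to 1807) in humdG in mesenchyme-like cells and at 895 CPM (95% interval 876 to 914) in humWT and 1021 CPM (989 to 1054) in humdG in muscle-like cells, against 57.8 and 21.04 CPM in red blood cell-like cells. Pericyte-like cells had 175 and 348 CPM and cartilage-like cells 157 and 190.4 CPM. The retinal classes ranged from 42.6 to 77.5 CPM in humWT and from 22.1 to 32.2 CPM in humdG. RPE-like cells had 146 and 42.0 CPM, so they were 3.47-fold lower in humdG, beside a 2.75-fold lower level in red blood cell-like cells.

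Meg3, the maternal noncoding RNA of the Dlk1 domain, reached 1851 CPM (95% interval 1837 to 1865) in humWT and 1402 CPM (1386 to 1418) in humdG in mesenchyme-like cells and 1146 and 1059 CPM in muscle-like cells. Unlike Dlk1 it was also high in the named classes of neurons. Photoreceptor precursor-like cells had 419.9 and 313 CPM, and amacrine and horizontal-like cells 507 and 197 CPM. Red blood cell-like cells had 182 and 64.0 CPM. Unnamed clusters with neuronal genes are described below and are not part of this contrast. Retinal progenitor-like cells had 132 and 60.4 CPM, below or level with red blood cell-like cells. Dlk1 UMIs per Meg3 UMI were 0.923 (0.913 to 0.933) in humWT and 1.28 (1.26 to 1.30) in humdG mesenchyme-like cells, and 0.136 (0.120 to 0.154) and 0.0827 (0.0693 to 0.0980) in photoreceptor precursor-like cells. In mesenchyme-like cluster 11, led by Col12a1 and Postn, Dlk1 was in excess, at 3.59 (3.32 to 3.90) and 5.17 (4.59 to 5.85). In muscle-like cluster 2, led by the sarcomere genes Ttn and Neb, Meg3 was in excess, at 0.145 (0.136 to 0.155) and 0.114 (0.0985 to 0.130).

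**Figure D2:**
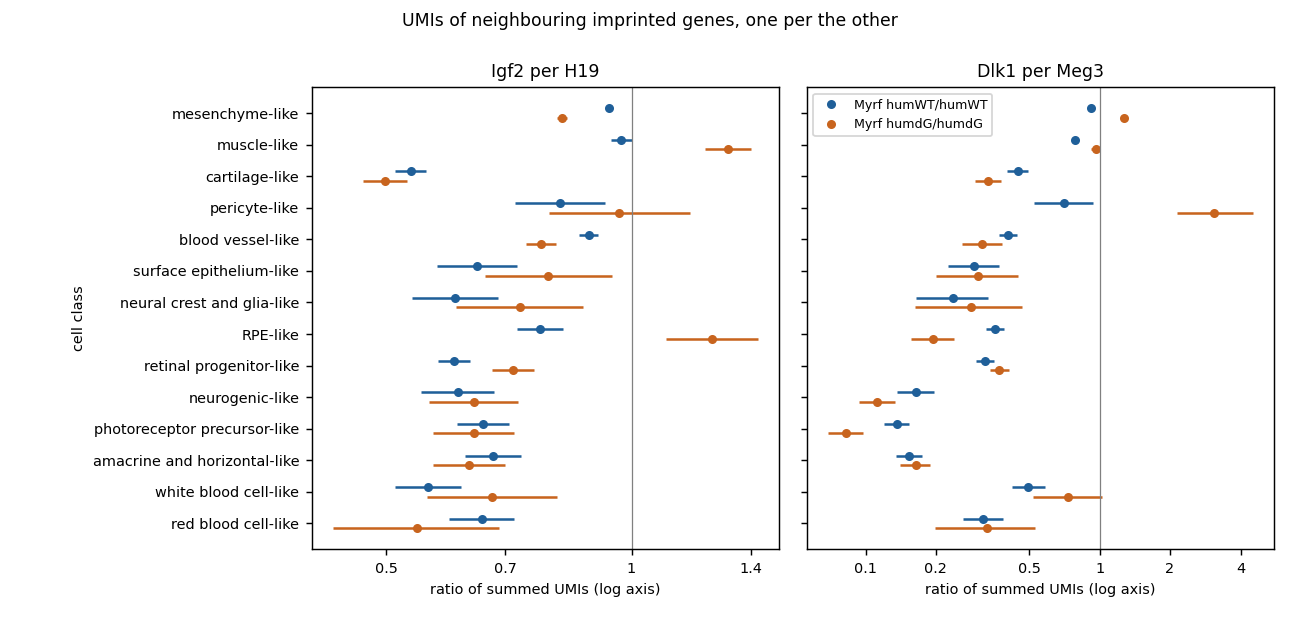
Ratio of summed UMIs on a log axis, Igf2 per H19 on the left and Dlk1 per Meg3 on the right, by cell class and library; points are ratios and lines their 95% counting intervals. The Igf2 per H19 ratio of red blood cell-like cells, 0.655 (0.598 to 0.716) in humWT, is exceeded by mesenchyme-like and muscle-like cells. It is overlapped by the neural retina, white blood cell-like, surface epithelium-like and neural crest and glia-like classes.

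Cdkn1c, which encodes the cell cycle inhibitor p57, had the highest level of the 10 genes in any class. It was at 3458 CPM (95% interval 3421 to 3495) in humWT and 4145 CPM (4080.3 to 4211) in humdG in muscle-like cells, 2199.9 CPM (95% interval 2185 to 2215) in humWT and 2442 CPM (2421 to 2463) in humdG in mesenchyme-like cells and 1390.2 CPM (95% interval 1329.8 to 1453) in humWT and 1945 CPM (1848 to 2046) in humdG in surface epithelium-like cells. Among retinal classes it was highest in amacrine and horizontal-like cells, at 498 and 542 CPM, above 229 and 108 CPM in red blood cell-like cells. Photoreceptor precursor-like cells had 251 and 264 CPM and retinal progenitor-like cells 130.2 and 85.6 CPM. Cells with 2000 or more UMIs were also split by 8 genes of G2 and M phase after thinning to 2000 UMIs. In blood vessel-like cells with no UMI of these genes Cdkn1c was at 521 CPM in humWT and 579 in humdG, against 259 and 199 in those with 2 or more. In amacrine and horizontal-like cells the values were 545 and 649 against 333 and 302 CPM, and in surface epithelium-like cells 1827 and 2716 against 627 and 413 CPM. Cells without these UMIs were higher in both libraries, with intervals apart, in 8 of 14 classes, these 3 and mesenchyme-like, muscle-like, cartilage-like, photoreceptor precursor-like and neural crest and glia-like cells. Median depth in humdG was 2102 UMIs in muscle-like and 2229 in surface epithelium-like cells, so many cells there were left out. The surface epithelium-like class held only 105 and 111 cells. The part of the mix of clusters within a class in this split was not tested. The other inhibitors of the family were lower: Cdkn1b, encoding p27, was at 46.9 and 44.1 CPM in mesenchyme-like cells and 108 and 103 CPM in retinal progenitor-like cells, and Cdkn1a, encoding p21, reached 152 and 155 CPM in surface epithelium-like cells. 3' tags of exons count molecules without regard to length, but whether intronic reads were counted is not given in the sources used. These levels are set side by side with that reserve, and with differences in how well each 3' end is captured.

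Peg3, a zinc finger gene, was at 909 CPM (95% interval 899 to 919) in humWT and 766 CPM (754 to 778) in humdG in mesenchyme-like cells, 652 and 631 CPM in cartilage-like cells and 525 and 479 CPM in muscle-like cells. RPE-like cells were next at 395 and 335 CPM, above the red blood cell-like 167 and 61.4 CPM. Photoreceptor precursor-like and amacrine and horizontal-like cells did not exceed that level by 2 times in either library, with 153 and 53.8 CPM in the latter. Mest, which encodes a protein of the hydrolase fold family, had another order. It was at 1012 CPM (95% interval 990.0 to 1034) in humWT and 1123 CPM (1088 to 1159.5) in humdG in blood vessel-like cells, above mesenchyme-like cells at 624 and 506 CPM and muscle-like cells at 395 and 352 CPM. RPE-like cells had 298 and 306 CPM and retinal progenitor-like cells 153 and 128 CPM, while photoreceptor precursor-like cells had 75.7 and 44.5 CPM, beside 90.03 and 60.5 CPM in red blood cell-like cells. Of the vessel clusters, cluster 16 (Flt1, Plvap) had 1109 and 1251 CPM and cluster 14 (Cd93, Vwf) 507 and 506 CPM.

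Grb10 and Plagl1 were the members that retinal progenitor-like cells held at 2 or more times the red blood cell-like level in both libraries. Grb10, an adaptor that binds the insulin and IGF1 receptors, was at 360.1 CPM (95% interval 351 to 369.7) in humWT and 380.0 CPM (373 to 387) in humdG in retinal progenitor-like cells and 264 and 291 CPM in neurogenic-like cells, against 133 and 92.9 CPM in red blood cell-like cells. It was lower in photoreceptor precursor-like cells, at 165 and 147 CPM, and amacrine and horizontal-like cells, at 183 and 126 CPM. Plagl1, a zinc finger transcription factor of growth arrest that also regulates other imprinted genes, was at 245 CPM (95% interval 237 to 252) in humWT and 271 CPM (265 to 278) in humdG in retinal progenitor-like cells, 98.3 and 101 CPM in neurogenic-like cells and 123 and 112 CPM in amacrine and horizontal-like cells, against 63.5 and 32.4 CPM in red blood cell-like cells. The order of retinal progenitor-like over neurogenic-like cells held for both genes in both libraries with intervals apart. In mesenchyme-like cells Grb10 was at 615 and 564 CPM and Plagl1 at 632 and 528 CPM. Plagl1 was lowest in neural crest and glia-like cells, at 25.7 and 24.9 CPM.

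Within mesenchyme the genes were not evenly spread. Cluster 5, led by Tnxb and Pi16, had 3638 and 2304 CPM for Igf2, 2925 and 3483 CPM for Dlk1 and 822 and 752 CPM for Plagl1. Dlk1 was among the 10 leading genes of cluster 5 although it was not used for clustering. Cluster 6, led by Spp1, Mgp and Rgs5, had 1831 and 1152 CPM for Igf2 and 368 and 487 CPM for Dlk1. Cluster 11 had 2354 and 1654 CPM for Igf2 and 1313 and 1270.3 CPM for Dlk1, but Meg3 at 365 and 246 CPM, against 2914 and 2494 CPM in cluster 5. The unnamed cluster 21, led by the tendon genes Tnmd and Scx, had the highest Mest of all clusters, 1763 and 1538 CPM. Within muscle, cluster 18 had 6633 and 6552 CPM for Cdkn1c and 1667 and 1586 CPM for Dlk1, against 551 and 445 CPM and 188 and 152 CPM in the fibre cluster 2.

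**Figure D3:**
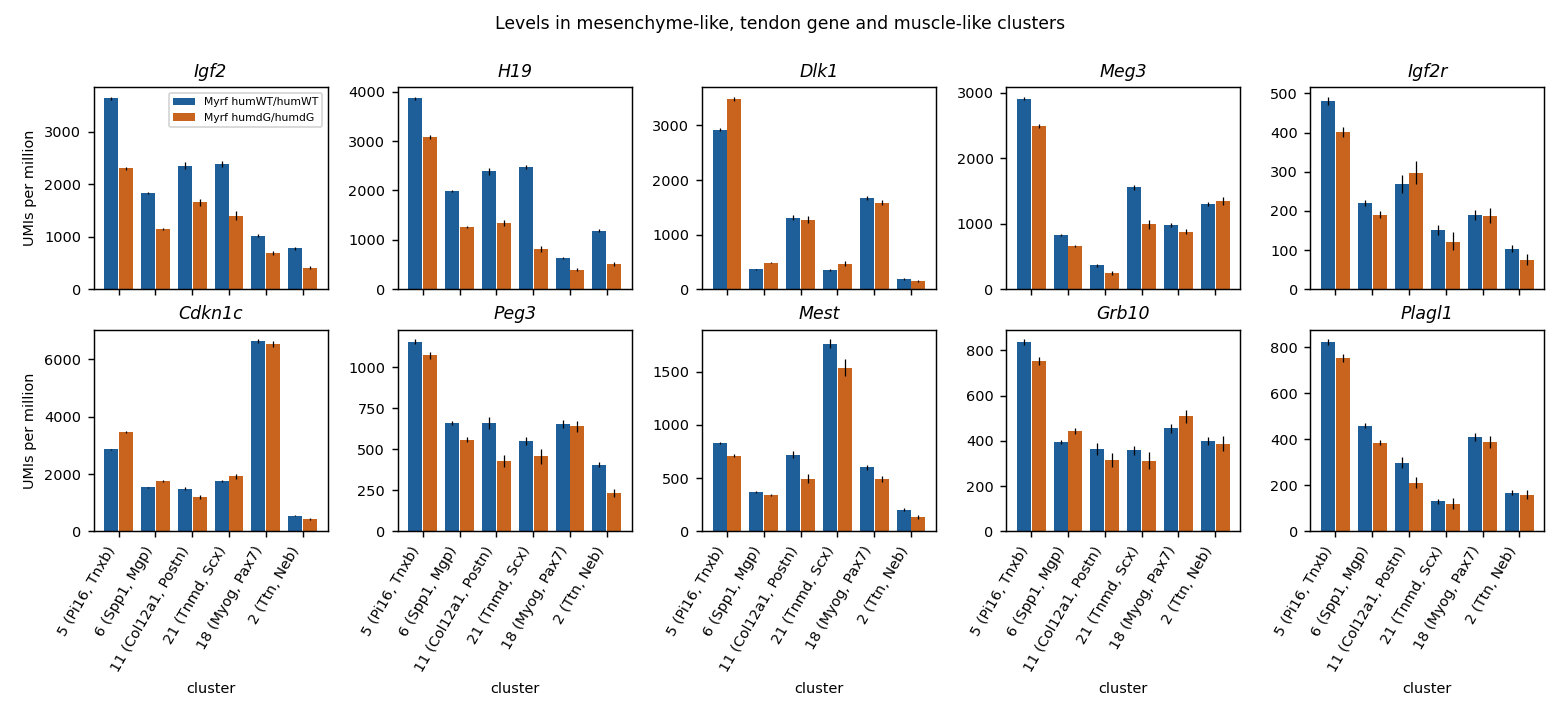
Level of each gene in CPM in 3 mesenchyme-like clusters (5, 6, 11), the unnamed cluster of tendon genes (21) and the muscle-like clusters (18, 2), by library; bars are levels and lines their 95% counting intervals. Cluster 5 is highest for 8 of the genes, cluster 18 for Cdkn1c and cluster 21 for Mest.

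Of the unnamed clusters, cluster 0 was the biggest, with 3533 humWT and 7377 humdG cells at a median of 2312 and 1647 UMIs. Its leading genes were mixed, with the neuronal genes Sncg, Nefl and Pou4f1 beside Gphn, Cdk8, AY036118 and Lars2. The muscle markers Acta1, Ttn and Myh3 were raised. Levels in cluster 0 were 722 and 315 CPM for Igf2, 388 and 272 CPM for Meg3, 512 and 370.0 CPM for Cdkn1c and 282 and 257 CPM for Grb10. Red blood cell-like cells had 344 and 101 CPM for Igf2. Igf2 per H19 in cluster 0 was 0.630 (0.610 to 0.650) and 0.622 (0.598 to 0.647), overlapping the red blood cell-like ratio in both libraries. Cluster 3, led by histone genes, had 415 and 124 CPM for Igf2 and 104 and 97.1 CPM for Plagl1. Cluster 15, led by the neuronal genes Nrxn3 and Dscam, had 2146 and 1323 CPM for Meg3, next to cluster 5 in humWT, and 1202 and 234 CPM for Igf2, with Col1a1 at 9906 and 551 CPM. Dlk1 UMIs per Meg3 UMI were 0.389 and 0.344 in cluster 0 and 0.111 and 0.0692 in cluster 15. Dlk1 was thus also counted in these clusters with neuronal genes. Cluster 22, led by the pigment genes Dct and Tyrp1, had 255 and 143 CPM for Igf2 and 137 and 68.8 CPM for Peg3.

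The myogenic cluster 18 was further split by Pax7, the gene of satellite cells and their embryonic precursors, and Myog, the gene of myoblasts that have begun to differentiate. In humWT 156 cells had only Pax7 UMIs and 38 only Myog UMIs, and in humdG 77 and 21. Cdkn1c was higher in the Myog cells, at 10463 (10242 to 10687) CPM in humWT and 10662 (10328 to 11004) in humdG, against 5397 (5311 to 5483) and 4985 (4869 to 5103) in the Pax7 cells. Dlk1 was higher in the Pax7 cells, at 2016 (1964 to 2069) and 1862 (1792 to 1935), against 870.5 (808 to 937) and 675 (593 to 765) in the Myog cells. Plagl1 followed Dlk1, at 484 (459 to 511) and 454 (419 to 490.2) against 189 (161 to 222) and 185 (144 to 235). Igf2 and H19 were higher in the Pax7 cells of both libraries as well, Igf2 at 1127 (1088 to 1167) and 737 (693 to 783) against 677 (622 to 736) and 562 (487 to 644). Grb10 had overlapping intervals, 455 (430.1 to 480.3) against 491 (445 to 542) in humWT. The intervals of Cdkn1c, Dlk1, Plagl1, Igf2, H19, Meg3 and Mest were apart in each library and in the same direction, whereas those of Igf2r and Peg3 were apart in humWT and overlapped in humdG. The 2 sets were cut by UMIs of 2 genes in the same cells, so they are ends of a range and not separate types.

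**Figure D4:**
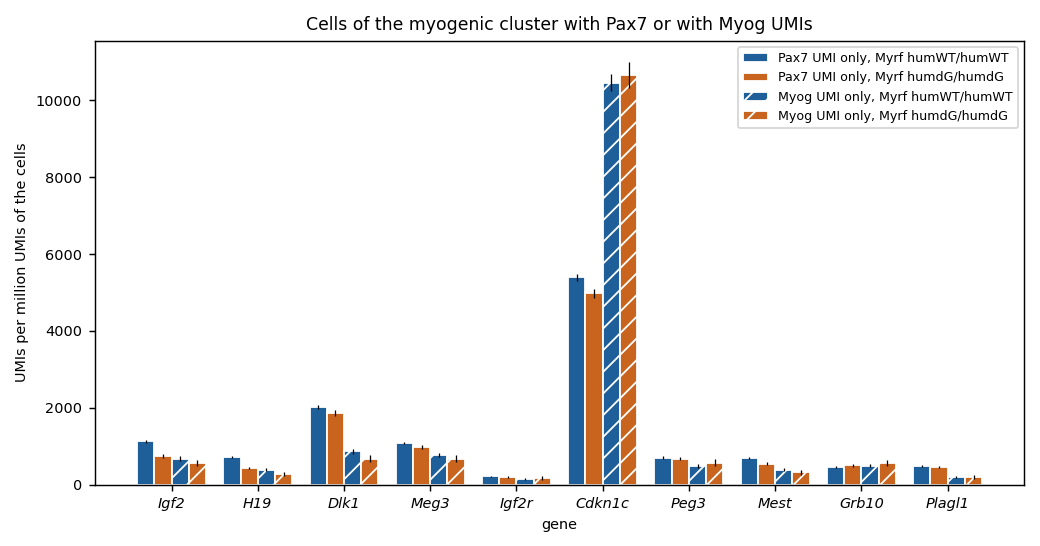
Level of each gene in CPM in cells of cluster 18 with Pax7 but no Myog UMIs (plain bars) and with Myog but no Pax7 UMIs (hatched bars), by library, with 95% counting intervals. Cdkn1c is at 5397 CPM in the Pax7 cells and 10463 CPM in the Myog cells of humWT, and Dlk1 and Plagl1 are lower in the Myog cells of both libraries.

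The libraries were then compared class by class. A gene was counted as lower or higher where its level in humdG was at least 2-fold below or above that in humWT, and the same count over all genes with 20 or more UMIs in the class is the background. Over 14 classes and 10 genes, 33 of 140 pairs of gene and class were at least 2-fold lower in humdG and none was at least 2-fold higher, the nearest being Dlk1 in pericyte-like cells at 175 and 348 CPM, a log2 ratio of 1.00 (0.58 to 1.41). In red blood cell-like cells 7 of 10 genes were at least 2-fold lower and none higher, against 15.2% lower and 5.21% higher of all genes there. Of the 26 pairs that were at least 2-fold lower in the other 13 classes, 25 were under 2 times the red blood cell-like level in at least 1 library, and the exception was Meg3 in amacrine and horizontal-like cells. Some of the 25 were under that mark in 1 library only. Dlk1 in RPE-like cells was at 2.52 and 1.997 times, Peg3 in pericyte-like cells at 1.97 and 2.17 and H19 in muscle-like cells at 1.75 and 2.39. The part of free RNA in the other 25 was not tested gene by gene. With the expected free RNA subtracted, 3 of the 83 pairs that could still be compared in 11 classes were at least 2-fold lower and 10 at least 2-fold higher, against 24 and 0 of 110 without it. Ranges over the alternatives below leave that subtraction out, and the alternatives include cells in which Xist was seen without any Y-linked gene and cells with the reverse. With it included, 53 of 140 pairs kept 1 direction, 25 of the 33 at least 2-fold lower and 28 of the other 107. Pairs in red blood cell-like cells, and pairs not left above 0 in both libraries, had no value after subtraction. Their direction was judged on the other settings alone, so these counts do not show that a difference outlasted the subtraction. Without the subtraction, the ratio of Dlk1 in pericyte-like cells lay between -0.22 and 2.38.

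In mesenchyme-like cells no member was past the 2-fold mark, against 3.04% lower and 1.73% higher of all genes, and the genes of the group went both ways. Igf2 was lower in humdG, with a log2 ratio of -0.73 (95% interval -0.75 to -0.72), and H19 likewise at -0.54 (-0.56 to -0.53). Dlk1, at 0.07 (0.05 to 0.08), and Cdkn1c, at 0.15 (0.13 to 0.17), were slightly higher in humdG. Each mesenchyme-like cluster gave a lower Igf2, with -0.66 (-0.68 to -0.64) in cluster 5, -0.67 (-0.70 to -0.64) in cluster 6 and -0.51 (-0.58 to -0.44) in cluster 11. Dlk1 was higher in humdG in cluster 5, at 0.25 (0.23 to 0.27), and cluster 6, at 0.41 (0.35 to 0.46), but not in cluster 11, at -0.05 (-0.14 to 0.04). Cdkn1c was 0.28 (0.26 to 0.30) in cluster 5, 0.19 (0.17 to 0.22) in cluster 6 and -0.30 (-0.39 to -0.21) in cluster 11. The tendon gene cluster 21 also had less Igf2 in humdG, -0.76 (-0.85 to -0.68), and less H19, -1.62 (-1.73 to -1.51). Igf2 stayed lower in every alternative tried, between -0.77 and -0.43, and was at -0.69 with the expected free RNA subtracted. Cdkn1c was between -0.09 and 0.28, so its direction was not stable, and Dlk1 between 0.01 and 0.34.

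In muscle-like cells 1 of 10 genes, H19, was at least 2-fold lower, at -1.06 (-1.14 to -0.98), and none higher, against 4.33% lower and 2.93% higher of all genes. Igf2 had -0.63 (-0.69 to -0.56), Dlk1 0.19 (0.13 to 0.24) and Cdkn1c 0.26 (0.23 to 0.29). The latter 2 were close to 0 within cluster 18, at -0.07 (-0.13 to -0.01) and -0.02 (-0.05 to 0.01), where Igf2 had -0.57 (-0.65 to -0.48). In cluster 2, at the levels given above, Dlk1 and Cdkn1c were both lower in humdG. Neither gene was thus higher within a cluster, and the class values also depend on the mix of clusters 2 and 18. These held 1659 and 255 cells in humWT, and 666 and 122 in humdG. H19 did not reach the 2-fold mark in every alternative, which ranged from -1.28 to -0.77, and was at -0.43 with free RNA subtracted. Over the alternatives Dlk1 in muscle-like cells lay between -0.99 and 1.19 and Cdkn1c between -0.87 and 1.29, so neither had a stable direction. Cartilage-like cells had 0 of 10 past the mark in either direction, against 3.24% lower and 23.0% higher of all genes, with a median log2 ratio over all genes of 0.550. Igf2 there was at -0.05 (-0.14 to 0.04) and H19 at 0.05 (-0.01 to 0.12), from 135 humdG cells. These values were not stable, since Igf2 had -1.58 between cells with Xist and -0.79 between cells with Y-linked UMIs, and H19 had -1.33 between cells with Xist and -0.31 between cells with Y-linked UMIs, with 24 and 36 humdG cells in the 2 sets. Blood vessel-like cells had 1 of 10 lower, Dlk1 at -1.12 (-1.40 to -0.85), and none higher, against 4.72% and 2.30%. The direction of Dlk1 turned in cells with Y-linked UMIs, at 0.93, and with free RNA subtracted, at 1.88. Igf2 in blood vessel-like cells was at -0.15 (-0.21 to -0.10), H19 at 0.04 (-0.01 to 0.09) and Mest at 0.15 (0.09 to 0.21). Over the alternatives these lay between -0.24 and 0.20, between -0.59 and 0.38 and between -0.16 and 0.35, so none had a stable direction. Pericyte-like cells had 2 of 10 lower, Meg3 and Peg3, and none higher, against 4.13% and 6.24%, from 105 and 89 cells. Surface epithelium-like cells had 0 of 10 past the mark, against 5.09% and 2.14%, with Cdkn1c at 0.48 (0.39 to 0.58). Its direction was not stable, between -1.17 and 1.93 over the alternatives, with -0.96 between cells with Xist and 1.93 between cells with Y-linked UMIs. Neural crest and glia-like cells had 0 of 10, against 5.50% and 2.91%. White blood cell-like cells had 5 of 10 lower (Igf2, H19, Dlk1, Meg3 and Peg3) and none higher, against 5.00% and 4.21%.

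In the neural retina the genes at least 2-fold lower in humdG were under 2 times the red blood cell-like level in at least 1 library, apart from Meg3 in amacrine and horizontal-like cells. Retinal progenitor-like cells had 3 of 10 lower, Igf2 at -1.43 (-1.52 to -1.35), H19 at -1.67 (-1.74 to -1.61) and Meg3 at -1.13 (-1.22 to -1.03), and none higher, against 5.68% lower and 1.94% higher of all genes. In the same cells Grb10 had 0.08 (0.03 to 0.12), with a range from -0.05 to 0.12 over the alternatives, and Plagl1 0.15 (0.09 to 0.21). Neurogenic-like cells had 2 of 10 lower, Igf2 and H19, and none higher, against 4.29% and 1.94%. Photoreceptor precursor-like cells had 4 of 10 lower (Igf2, H19, Dlk1 and Peg3) and none higher, against 5.13% and 1.99%, and Cdkn1c had 0.07 (-0.04 to 0.18). Amacrine and horizontal-like cells had 6 of 10 lower (Igf2, H19, Dlk1, Meg3, Peg3 and Mest) and none higher, against 7.31% and 2.05%. Of these, Meg3 exceeded the red blood cell-like level by 2 times in both libraries and was at 507 and 197 CPM, a log2 ratio of -1.37 (-1.47 to -1.26) beside -1.51 (-1.89 to -1.14) in red blood cell-like cells. It lay between -2.23 and -0.78 over the alternatives and at -1.23 with free RNA subtracted. RPE-like cells had 2 of 10 lower, H19 at -1.48 (-1.63 to -1.33) and Dlk1 at -1.79 (-2.11 to -1.49), and none higher, against 5.82% and 2.60%. The ratio of Dlk1 lay between -2.90 and -0.75 over the alternatives, and neither gene was left above 0 in both libraries after free RNA was subtracted. Igf2 in RPE-like cells had -0.78 (-0.92 to -0.63), Peg3 -0.24 (-0.36 to -0.12), Mest 0.04 (-0.09 to 0.17) and Grb10 -0.17 (-0.31 to -0.03). Igf2 differed between the sets of cells, with -0.08 between cells with Xist and -1.08 between cells with Y-linked UMIs, and Mest lay between -0.22 and 0.33 over the alternatives.

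**Figure D5:**
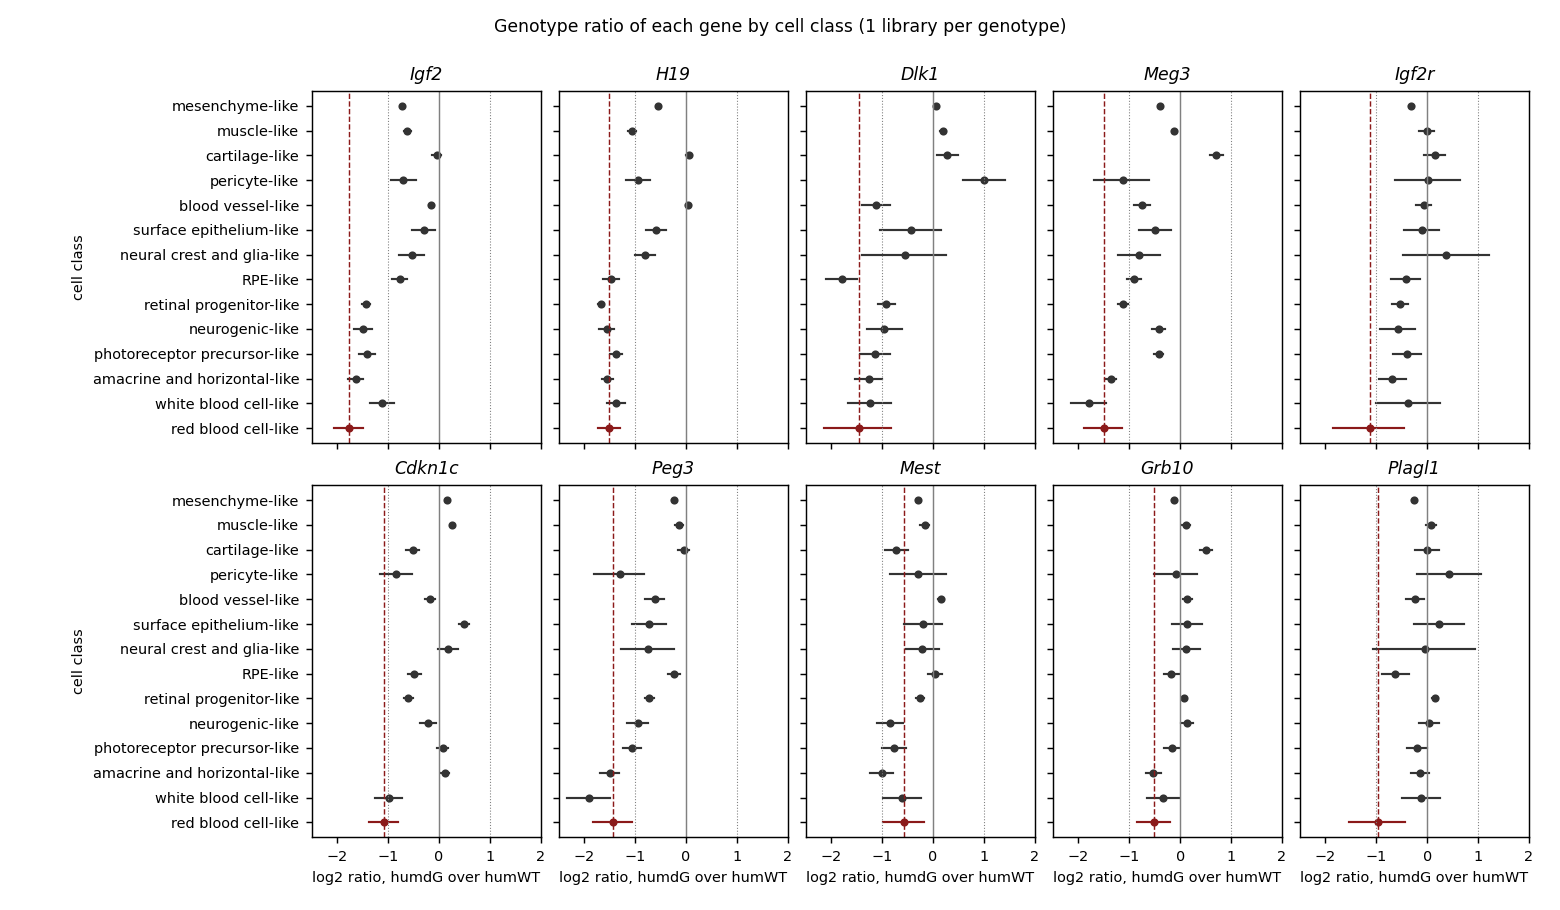
Log2 ratio of humdG over humWT for each gene (panels) and cell class (rows); points are ratios, lines 95% counting intervals, the solid line is 0, dotted lines mark 2-fold, and the dashed red line is the ratio in red blood cell-like cells. For Igf2 and H19 the retinal classes lie near the red line, while mesenchyme-like, cartilage-like and blood vessel-like cells lie to its right, with Igf2 at -0.73, -0.05 (-1.58 and -0.79 in cells with Xist and with Y-linked UMIs) and -0.15.

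Transcripts of both sexes were found in each pool, in unequal parts. Cells in which Xist was seen without any Y-linked gene were 14.0% of humWT and 29.4% of humdG cells, and cells with the reverse 35.7% and 19.6%. Xist and Y-linked UMIs can also come from free RNA, and the balance of the sets changed with class. In humWT, cells with Xist and cells with Y-linked UMIs numbered 47 and 1221 among retinal progenitor-like cells. Among cartilage-like cells they numbered 230 and 203. The sets are thus neither a clean split by embryo nor replicates, and their ratios are given as a description. In mesenchyme-like cells the log2 ratio of Igf2 was -0.65 between cells with Xist and -0.77 between cells with Y-linked UMIs, and that of H19 was -0.40 between cells with Xist and -0.56 between cells with Y-linked UMIs. Cdkn1c had 0.12 between cells with Xist and 0.20 between cells with Y-linked UMIs. In muscle-like cells Cdkn1c had -0.28 between cells with Xist and 0.53 between cells with Y-linked UMIs, and Dlk1 had -0.36 between cells with Xist and 0.26 between cells with Y-linked UMIs, so both differed in direction between the sets, while Igf2 had -0.76 between cells with Xist and -0.46 between cells with Y-linked UMIs.

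The other genes of the same pathways were read from lists of 49 further imprinted genes and 16 genes of the IGF axis. In mesenchyme-like cells 42 of the imprinted list had 20 or more UMIs, 33 exceeded the red blood cell-like level by 2 times in both libraries, and none was past the 2-fold mark between libraries, with a median log2 ratio of -0.13 against -0.08 over all genes. The 33 include Dcn, which was also a marker used to name this class, so its high level there was set by the naming. In retinal progenitor-like cells 7 of 38 were at least 2-fold lower in humdG (Rian, Mirg, Rtl1, Airn, Zim1, Ddc and Dcn) and none higher, against 5.68% and 1.94% of all genes, with a median of -0.10 against -0.03. None of these 7 exceeded the red blood cell-like level by 2 times in both libraries. Rian, Mirg, Airn, Zim1 and Dcn were also at least 2-fold lower in red blood cell-like cells. Rian and Mirg are noncoding RNAs downstream of Meg3, and Rian was at 484 and 352 CPM in mesenchyme-like cells and 77.7 and 26.5 CPM in retinal progenitor-like cells. Nnat, a gene of neuroendocrine cells, was highest in amacrine and horizontal-like cells, at 1369 and 1761 CPM. In RPE-like cells 4 of 34 were lower (Mirg, Kcnq1ot1, Airn and Dcn) and 2 higher (Nnat and Peg13), against 5.82% and 2.60% of all genes. Mirg, Kcnq1ot1, Airn and Dcn were also at least 2-fold lower, and Nnat at least 2-fold higher, in red blood cell-like cells. Among these genes only Kcnq1ot1 and Airn exceeded the red blood cell-like level by 2 times in both libraries in RPE-like cells. Of the IGF axis, none of 15 genes tested was past the mark in mesenchyme-like cells, where Igf1 was at 662 and 569 CPM and the receptor Igf1r at 310.2 and 258 CPM. In retinal progenitor-like cells 4 of 15 were at least 2-fold lower, in photoreceptor precursor-like cells 5 and in RPE-like cells 3, with none higher. The shares of all genes lower there were 5.68%, 5.13% and 5.82%. None of these lower genes exceeded the red blood cell-like level by 2 times in both libraries in those classes. Igf1r was spread more evenly, with 312 and 317 CPM in retinal progenitor-like cells and 387 and 332 CPM in amacrine and horizontal-like cells. The Igf2 mRNA-binding gene Igf2bp1 was higher in retinal progenitor-like cells, at 93.9 and 111 CPM, than in mesenchyme-like cells, at 30.2 and 37.2 CPM. Cartilage-like cells had 6 of 15 genes of this axis at least 2-fold higher and 3 lower, and 7 of 31 of the imprinted list higher, beside 23.0% higher and 3.24% lower of all genes. Of the 6 CIP, KIP and INK4 inhibitors other than Cdkn1c, 1 of 6 tested in retinal progenitor-like cells was at least 2-fold lower (Cdkn2b) and 0 of 5 tested in mesenchyme-like cells was past the mark. Plag1 and Plagl2, the relatives of Plagl1, were low throughout, at 18.96 and 26.5 CPM and 21.7 and 21.4 CPM in retinal progenitor-like cells. None of the 8 genes of G2 and M phase was past the mark in mesenchyme-like, muscle-like or retinal progenitor-like cells. At least 2-fold higher in humdG were Cdk1 in red blood cell-like, Ccna2 in pericyte-like and Ccnb1 and Ube2c in white blood cell-like cells. The shares of all genes higher there were 5.21%, 6.24% and 4.21%, and none of the 8 was at least 2-fold lower in any class.

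The genes whose pattern was most like each member were found over 46 points, the 23 clusters with 50 or more cells in each library taken in both libraries, among 12473 genes with 1000 or more UMIs. The points share libraries and free RNA, so these correlations of log2(CPM + 10) are descriptions. Igf2 was most like H19 (r = 0.96), Fkbp10 (r = 0.94), Bgn (r = 0.93), where Fkbp10 and Bgn are genes of collagen matrix, H19 was most like Igf2 (r = 0.96), Bgn (r = 0.91), Fkbp10 (r = 0.91), and Igf2r was most like Igf2 (r = 0.91), Lamb1 (r = 0.89), Cdc42ep5 (r = 0.88). Dlk1 was most like Nrk (r = 0.94), Agtr2 (r = 0.92), Islr (r = 0.90), and Meg3 Rian (r = 0.93), Igdcc4 (r = 0.93), Mirg (r = 0.91). Cdkn1c was most like Spats2l (r = 0.87), Antxr1 (r = 0.84), Itm2a (r = 0.83), Peg3 Capn6 (r = 0.94), Islr (r = 0.93), Sema3c (r = 0.92) and Mest Sparc (r = 0.90), Prrg3 (r = 0.88), Hspg2 (r = 0.88). Grb10 was most like Mpdz (r = 0.86), Plagl1 (r = 0.81), Ctdsp2 (r = 0.81) and Plagl1 Ror1 (r = 0.83), Klhl13 (r = 0.82), Grb10 (r = 0.81), each holding the other among its 3. Of the 45 pairs of members, Igf2 with H19 had the highest r and Plagl1 with H19 the lowest, at 0.45.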

How the data were processed

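Single-cell RNA-seq was analysed from 1 library per genotype. Per the submitters' processing notes, reads were processed with Cell Ranger 7.1.0 against mm10 and analysed by the authors with Seurat 4.1.1, and the authors deposited UMI counts per gene and barcode, not normalized; whether intronic reads were counted is not given in the sources used here. The labels state that the cornea was removed from 3 pooled eye cups, whereas the methods of the study leave the cornea in place and give 3 mice and 6 eyes; corneal genes were found. The libraries held 17421 humWT and 19565 humdG barcodes, more than the number of cells the study states, and 129135207 and 114319529 UMIs. Cells with a minimum of 500 genes, the first limit in the authors' code, and a maximum of 15% mitochondrial UMIs were kept; the authors' methods text gives 200 genes, which was an alternative. Scrublet in scanpy 1.11.5 marked 1 and 0 cells by itself, and instead the top 5% by doublet score (772 and 847 cells) was removed. Cells were integrated in Seurat 5.3.0 (R 4.3.3) on 20 dimensions with 1986 variable genes, the members and other imprinted genes left out, and clustered at resolution 0.5. A cluster was named from marker genes when at least 3 markers of a class were 2-fold raised and seen in at least 10% of its cells. A marker of that class also had to be among the 20 leading genes of the cluster. Clusters with tied names, with more leading genes of another class, or led by Tnmd and Scx, the last rule set after the data were seen, stayed unnamed. UMI counts were summed per class and library and divided by the class total (CPM). Exact Poisson and, for ratios, exact conditional binomial intervals were computed with scipy 1.17.1, and cover counting error only. With 1 library per genotype no p-value was computed. Genes with 20 or more UMIs over both libraries formed the background, and the fold mark was 2. The named genes are the 10 members, the 3 genes most like each, and those of the other lists past the mark or of known role. The members and gene lists were chosen with earlier results of these data known. The genotype ratio with its interval and the ranking by correlation were run on simulated data, but the naming of clusters was not. The simulated counts were independent Poisson draws, as the interval assumes, and the ranking was given planted near copies. These runs check the code and cannot show how either holds with free RNA or spread between cells. For the free RNA alternative, the profile of the 1% of barcodes with the fewest UMIs was scaled until its globin UMIs matched those of a class, which put free RNA at 7.36% to 51.4% of the UMIs of a class, and was subtracted. Alternatives covered cell filters, doublets, clustering, weighting, depth, free RNA and cells with Xist or with Y-linked UMIs.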

Additional observations from a re-analysis of the deposited data

Results flagged for a closer look

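For 4 genes the libraries differed in opposite directions in different cell classes, by at least 2-fold lower in humdG in a class and with an interval above 0 in a different class. With 1 library per genotype these differences between classes were not tested, and the higher value of each pair turned its sign in at least 1 alternative. The lower value of Cdkn1c was in red blood cell-like cells, the measure of free RNA. Meg3 in white blood cell-like cells was at 0.91 and 0.74 times the red blood cell-like level. Mest in amacrine and horizontal-like cells was at 1.05 and 0.78 times that level, and Dlk1 in RPE-like cells at 2.52 and 1.997 times. Dlk1 had a log2 ratio of humdG over humWT of -1.79 (-2.11 to -1.49) in RPE-like cells and 1.00 (0.58 to 1.41) in pericyte-like cells. Over the alternatives the latter lay between -0.22 and 2.38. Meg3 had a log2 ratio of humdG over humWT of -1.80 (-2.15 to -1.46) in white blood cell-like cells and 0.71 (0.59 to 0.83) in cartilage-like cells. Over the alternatives the latter lay between -0.92 and 0.73. Cdkn1c had a log2 ratio of humdG over humWT of -1.09 (-1.38 to -0.80) in red blood cell-like cells and 0.48 (0.39 to 0.58) in surface epithelium-like cells. Over the alternatives the latter lay between -1.17 and 1.93. Mest had a log2 ratio of humdG over humWT of -1.01 (-1.24 to -0.79) in amacrine and horizontal-like cells and 0.15 (0.09 to 0.21) in blood vessel-like cells. Over the alternatives the latter lay between -0.16 and 0.35. In cartilage-like cells Meg3 was at -0.33 between cells with Xist and -0.92 between cells with Y-linked UMIs. The median log2 ratio over all genes of the cartilage-like class was 0.550, and 23.0% of genes were at least 2-fold higher in humdG. Its expected free RNA share was 51.4% in humWT and 17.4% in humdG, and the part of this in the Meg3 ratio was not tested. Cdkn1c in red blood cell-like cells lay between -1.48 and 0.26. All 10 genes were lower in humdG in red blood cell-like cells as reported, and 6 of them turned in an alternative.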

How the results depend on the processing

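No paired analysis was possible because each genotype has 1 library. Alternatives were compared over 110 pairs of gene and class, the 11 classes, red blood cells aside, that every alternative held. Pairs at least 2-fold lower in humdG numbered 24, and between 22 and 34 in the other settings but for 3 of 83 with the expected free RNA subtracted. Pairs at least 2-fold higher numbered 0, and 2 with libraries merged without integration, 1 with cells of 2000 to 10000 UMIs, 10 with free RNA subtracted, 2 in cells with Xist, 3 in cells with Y-linked UMIs and 1 with classes set by markers without clusters. Pairs at 2 or more times the red blood cell-like level numbered 39, and between 28 and 43 otherwise; after subtraction there was no such count. Among pairs at least 2-fold lower, subtraction turned the sign of the log2 ratio of Peg3 in photoreceptor precursor-like (0.87) and amacrine and horizontal-like (0.22) cells, Igf2 in neurogenic-like cells (2.68) and Dlk1 in blood vessel-like cells (1.88). Cells with Y-linked UMIs turned Dlk1 in blood vessel-like cells (0.93) and Igf2r in red blood cell-like cells (0.79). Classes by markers turned Meg3 (0.32) and Cdkn1c (0.26) in red blood cell-like cells and Meg3 in pericyte-like cells (0.20). By markers the pericyte-like set held 1 humWT and 1 humdG cell. The red blood cell-like set held 158 and 1900 cells, of which 67 and 168 were in the class by clusters. Surface epithelium-like sets held 17 and 13 cells, and neural crest and glia-like sets 3 and 8. The ranges over the alternatives include these small sets. The causes were not tested. Of 1886 ratios recomputed over 140 pairs, 1246 lay within the counting interval and 221 had the opposite sign to the reported ratio, these 9 and 212 of pairs under the 2-fold mark. Of those smaller ratios, 79 of 107 pairs took the opposite sign in at least 1 setting. Cells with Y-linked UMIs did so for Meg3 in blood vessel-like (0.55) and cartilage-like (-0.92) cells, and cells with Xist for Cdkn1c in surface epithelium-like (-0.96) and Dlk1 in pericyte-like (-0.15) cells. The setting with the largest cluster of each class alone was added after seeing the data. Depth limits the small classes most, and no setting replaces a second library per genotype.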
